A study of Mus musculus with 48 samples.

Results

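Mitochondrial ribosomal proteins are the protein subunits of the ribosome inside mitochondria, and their transcripts were followed across 8 groups of mouse brain samples. The members were the protein-coding genes whose symbol begins with Mrps or Mrpl and a number in the GENCODE M21 annotation, 78 of 48709 genes in the count files (21695 of them protein-coding). Of these, 26 encode proteins of the small subunit and 51 of the large subunit, and Mrps36 was assigned to neither. The genes lie on 17 chromosomes. A total of 5 further symbols of this form belong to genes that are not protein-coding and were not members.

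Mitochondria carry their own ribosome, which differs from that of the cytosol and translates only the messages of the mitochondrial genome, which encode membrane proteins of oxidative phosphorylation. The ribosomal RNAs come from the mitochondrial genome, while every ribosomal protein is encoded in the nucleus, made in the cytosol and imported. Part of these proteins descend from bacterial ribosomal proteins, and the others were added in the mitochondrial lineage. Neurons depend on respiration for most of their ATP.

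RNA came from whole tissue of C57BL/6J mice. Dentate gyrus was sequenced from wild-type (Fmn2+/+) and Fmn2-/- mice, which lack the actin nucleator Formin 2, at 3 months (5 and 5 mice) and at 8 months (3 and 5 mice), and from 3-month-old mice that all carried an amyloid transgene and were labelled FMN2 +/+ APP (9 mice) or FMN2-/-_APP (7 mice). A further experiment compared mice labelled APP with wild-type mice (6 and 6), whose titles name the prefrontal cortex (PFC), whose tissue field says dentate gyrus and whose age is given as 4 months. The study used the APPPS1 line, in which a Thy1 promoter drives the transgenes in neurons, and the Fmn2 mutation is constitutive, so no group is specific for a cell type. In all, 48 libraries of 46 mice were used, since 1 mouse of each APP cross group was sequenced in 2 runs that were summed.

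Per mouse, 16479658 to 43921030 reads were counted on genes in most groups, but only 6818809, 8381078 and 9175551 to 11675280 in the 2 shallower 8-month Fmn2+/+ mice and the 5 Fmn2-/- mice of that age. Fmn2 itself was at 90.8 to 102.8 CPM (reads of a gene scaled to a common library size) in 3-month Fmn2+/+ mice and at 21.4 to 26.9 in Fmn2-/- mice, and at 80.1 to 103.7 and 21.8 to 27.8 at 8 months. In the cross the levels go against the labels, with 84.7 to 103.6 CPM in the libraries labelled FMN2-/-_APP and 19.6 to 23.8 in those labelled FMN2 +/+ APP, so directions there are given for the labels only. The summed level of 6 granule cell markers was 747 to 1433 CPM in the dentate gyrus groups and 163 to 203 CPM in the libraries titled PFC, where 6 markers of cortical neurons reached 638 to 716 CPM against 121 to 332 CPM elsewhere. Choroid plexus markers summed to 3969 CPM in 1 Fmn2-/- mouse of 3 months (replicate 4) and to 9573 and 6242 CPM in replicates 4 and 5 labelled FMN2 +/+ APP. Replicate 7 of that label had 392 CPM. At 8 months they summed to 609 and 583 CPM in Fmn2-/- replicates 2 and 3. The other Fmn2-/- mice of that age had 29.1 to 98.3 CPM, and the Fmn2+/+ mice 72.5 to 232 CPM. Among 8-month Fmn2-/- mice, replicates 2 and 3 were unusually alike, with a chi-square per degree of freedom of 1.62 between their counts, where the 2 pairs of runs of 1 mouse gave 1.72 and 2.15, and all other pairs of mice within a group more than either. They were kept as 2 mice, and summing them is among the alternatives.

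In each mouse the members took up between 0.170% and 0.307% of all reads on genes. After a filter on low counts 77 of 78 members remained in every comparison, and the one left out, Mrpl53, had 0 to 8 reads per mouse and none in 11 mice. Its exons, 790 bases long, share 710 bases in all with exons of 2 other genes. Reads that fit several genes equally are not counted, so few reads on Mrpl53 need not mean low expression. Levels were compared between genes as RPKM (CPM per kilobase of exon). In 3-month Fmn2+/+ mice the median member stood at 11.4 RPKM. The highest were the large-subunit genes Mrpl41 at 56.1 ± 2.55 RPKM (SD, n = 5) and Mrpl20 at 40.3 ± 0.508, and the small-subunit gene Mrps21 at 37.6 ± 2.72, where the second and the third differed by about the spread of the latter. The lowest were Mrps10 at 2.38 ± 0.179 RPKM, Mrps34 at 1.02 ± 0.398 and Mrpl23 at 0.411 ± 0.0631. The exons of Mrps34 overlap those of Mapk8ip3 on the other strand, and the library kit does not mark strand. Reads in the shared part cannot be told apart and are counted for neither gene. The low level of Mrps34 therefore need not mean low expression. In all, exons of 33 members overlap those of another gene, 26 of them on the opposite strand.

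The order of levels was nearly the same in all groups. The rank correlation across the 77 members with 3-month Fmn2+/+ mice was 0.994 in Fmn2-/- mice of that age, 0.968 to 0.984 at 8 months, 0.940 to 0.948 in the cross and 0.920 to 0.923 in the libraries titled PFC. Genes are not independent replicates, so these values describe the groups only. Within a group the median member varied between mice with a coefficient of variation of 5.30% in 3-month Fmn2+/+ mice and 13.7% in mice labelled FMN2-/-_APP, the extremes of the 8 groups.

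**Figure D1:**
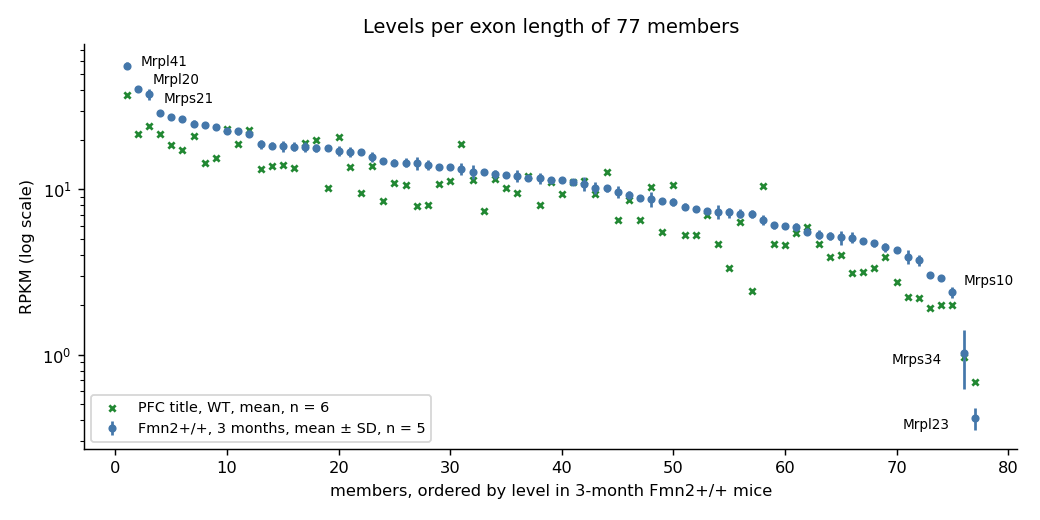
RPKM (log scale) of the 77 members that passed the filter, ordered by their mean in 3-month Fmn2+/+ mice (points with SD, n = 5), with the mean of the wild-type libraries titled PFC (crosses, n = 6). Mrpl41 at 56.1 RPKM leads and Mrpl23 at 0.411 RPKM closes the order.

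RefSeq promoter windows (GRCm38.p6, 250 bases before to 50 after the annotated start) were found for 69 of the 78 members. The letters CCGGAAG, the core bound by ETS family factors such as GABP, a known activator of nuclear genes for mitochondrial proteins, stood on either strand in the windows of 37.7% of these members, against 9.93% of 27025 gene symbols with a window. The letters AAGATGGC, bound by YY1, were found in 17.4% against 3.19%, and GCGCATGC, bound by NRF1, in 11.6% against 3.05%. TATAAA stood in 7.25% of members against 15.7% of all symbols, and CCCGCCCC, bound by SP family factors, in 20 of 69 members against 18.4% of all symbols. These are matches of letters, not binding sites. Below are the 120 bases before the RefSeq start, 5′ to 3′ on the gene's strand, of 4 members that hold the ETS letters there and whose genotype difference changed between the ages in the test given further on, and of Mrps14, which held none of these 5 motifs and had the highest fold change of the members at both ages. The letters were about as frequent in the 13 members called in that test that have a window (5) as in the 56 others (21), and the sequences were picked for holding them. Capitals mark CCGGAAG or its reverse complement CTTCCGG.
Mrps18a: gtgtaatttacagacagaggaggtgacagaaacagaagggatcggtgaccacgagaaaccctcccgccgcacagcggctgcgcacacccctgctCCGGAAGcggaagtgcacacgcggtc
Mrpl34: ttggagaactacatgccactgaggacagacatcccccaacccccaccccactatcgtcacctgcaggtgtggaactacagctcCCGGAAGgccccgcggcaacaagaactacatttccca
Mrpl52: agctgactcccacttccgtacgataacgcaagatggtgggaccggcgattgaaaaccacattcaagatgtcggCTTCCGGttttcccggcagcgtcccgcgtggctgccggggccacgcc
Mrps26: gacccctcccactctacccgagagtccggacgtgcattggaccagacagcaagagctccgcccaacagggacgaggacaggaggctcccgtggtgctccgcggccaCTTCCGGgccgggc
Mrps14: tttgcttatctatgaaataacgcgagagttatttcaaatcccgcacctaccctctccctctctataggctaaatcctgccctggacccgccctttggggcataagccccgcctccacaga
The stretches lie at chr17:46110884-46111003 (Mrps18a), chr8:71464806-71464925 (Mrpl34), chr14:54426789-54426908 (Mrpl52), chr2:130563637-130563756 (Mrps26) and chr1:160195095-160195214 (Mrps14), all on the plus strand. The ETS letters began 26 bases before the start in Mrps18a, 37 in Mrpl34, 47 in Mrpl52 and 14 in Mrps26.

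The mean level of the members, taken as the mean log2 CPM of all 77 on a scale common to the 46 mice, was higher in Fmn2-/- mice at 3 months and lower in them at 8 months. At 3 months the Fmn2+/+ group had 4.67 ± 0.0145 and the Fmn2-/- group 4.75 ± 0.0231 (SD, n = 5 each), and no mouse of the former (highest 4.69) reached the lowest of the latter (4.71). At 8 months the 3 Fmn2+/+ mice had 4.91, 4.75 and 4.88 (4.85 ± 0.0874, SD), and the 5 Fmn2-/- mice averaged 4.68 ± 0.0358 (SD) with 4.74 as the highest. The groups thus did not overlap at either age, but the lowest Fmn2+/+ mouse of 8 months, replicate 2 with the fewest reads, lay close to the highest Fmn2-/- mouse. Mice of 3 months ran on lanes 5 and 6, and those of 8 months on lane 7 except Fmn2+/+ replicate 1 on lane 6, so age and lane can be told apart only through that mouse. In bulk tissue, less RNA per cell and fewer cells rich in a transcript cannot be told apart either.

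**Figure D2:**
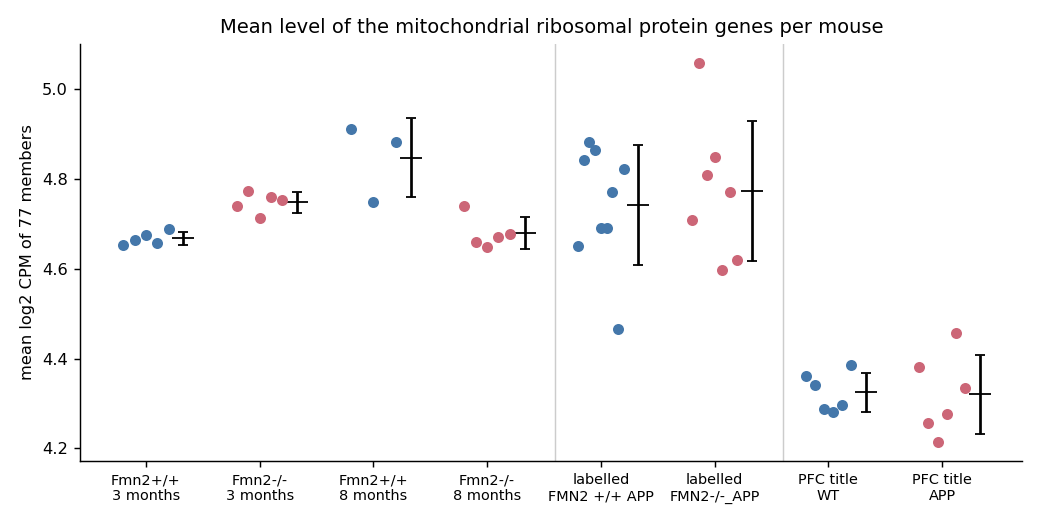
Mean log2 CPM of the 77 members in each of the 46 mice (points), with the mean and SD of each of the 8 groups (bars). Fmn2-/- mice lie above Fmn2+/+ mice at 3 months (4.75 against 4.67) and below them at 8 months (4.68 against 4.85), and the libraries titled PFC lie lowest.

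At 3 months, transcripts of the mitochondrial ribosome were slightly more abundant in Fmn2-/- than in Fmn2+/+ mice, with no single member past the threshold of an adjusted p under 0.05. Of 77 members, 61 (79.2%) had a positive log2 fold change, against 51.1% of all genes tested, and the median was 0.072 against 0.0041 over all 16630 genes. By the quasi-likelihood test of edgeR, adjusted after Benjamini and Hochberg, 0 members were called, where 0.0301% of all genes were called in either direction. At an unadjusted p under 0.05, 20 members were higher (6.35% of all genes were) and 1 was lower. In 9 members every Fmn2-/- mouse was above every Fmn2+/+ mouse, as in 1.94% of all genes. DESeq2 called 3 members higher, Mrps7, Mrpl28 and Mrps14, where it called 1.16% of all genes with an adjusted p higher.

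The members with the smallest p were Mrpl28, Mrpl12, Mrps7, Mrps14 and Mrpl14. Mrpl12, whose protein forms the stalk of the large subunit to which translation factors bind and also associates with the mitochondrial RNA polymerase, was at 35.3, 34.8, 34.2, 35.1 and 35.3 CPM in the Fmn2+/+ mice and at 37.5, 43.7, 38.2, 41.6 and 40.6 in the Fmn2-/- mice. The groups did not overlap, and the log2 fold change was 0.21 (standard error, SE, 0.052, with an edgeR adjusted p = 0.22). Mrpl28, a large-subunit protein, was at 30.1, 28.4, 29.5, 31.7 and 30.6 CPM against 32.7, 36.6, 34.6, 36.5 and 42.4 CPM. These groups did not overlap either, with a log2 fold change of 0.28 (SE 0.069, adjusted p = 0.211, edgeR). For Mrps7, a small-subunit protein near the messenger RNA exit, the means were 36.1 ± 2.47 and 42.2 ± 1.84 CPM (SD, n = 5 each, log2 fold change 0.23), and for Mrpl14, a protein at the interface of the subunits, 11.3 ± 0.752 and 13.4 ± 0.621 CPM (log2 fold change 0.25). Leaving out each mouse in turn kept the adjusted p of all 5 above the threshold except for Mrps14 in 1 of 10 fits. Of the Fmn2+/+ mice all ran on lane 5 and of the Fmn2-/- mice 1 did, the others running on lane 6, and with lane as a term 56 of 77 members were above 0, with a median of 0.070. Without Fmn2-/- replicate 4, the mouse high in choroid plexus markers, 62 were above 0 with a median of 0.077 and 0 were called. With all mice, all 6 oligodendrocyte and 5 of 6 cortical neuron markers were below 0. Of 6 markers each, 5 of microglia, 5 of endothelium, 4 of granule cells and 3 of astrocytes were above 0. No marker was called, and their part in the result was not tested.

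At 8 months the direction was the opposite, and transcripts of the mitochondrial ribosome were lower in Fmn2-/- mice. A negative log2 fold change was found for 65 of 77 members (84.4%), against 48.8% of all genes, with a median of -0.16 against 0.006 over all 14665 genes tested. The test called 1 member lower, Mrpl11, where 0.88% of all genes were called lower, and DESeq2 called 8 members lower, where it called 3.56% of all genes lower, and Mrps14 higher. At an unadjusted p under 0.05, 30 members were lower (12.5% of all genes) and 1 was higher. In 18 members all Fmn2-/- mice were below all Fmn2+/+ mice (6.57% of all genes).

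Mrpl11 lies at the base of the stalk of the large subunit. It was at 66.2, 63.1 and 75.5 CPM in Fmn2+/+ mice and at 55.0, 51.2, 54.6, 49.4 and 52.2 CPM in Fmn2-/- mice, with no overlap. Its log2 fold change was -0.38 (SE 0.075, adjusted p = 0.0434, edgeR), and it passed the threshold in only 1 of the 8 fits that left out 1 mouse, with an adjusted p of up to 0.26. At 3 months Mrpl11 was at 51.1 to 52.9 CPM in Fmn2+/+ and 53.1 to 56.3 CPM in Fmn2-/- mice, so there the knockouts were the higher group.

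The next 4 by p missed the threshold narrowly. Mrps12, a small-subunit protein of the decoding centre, was at 25.7, 19.5 and 17.9 CPM in Fmn2+/+ mice and between 14.1 and 16.0 CPM in Fmn2-/- mice (log2 fold change -0.50, SE 0.12, adjusted p = 0.0572, edgeR). The gap between its groups was narrow, since the Fmn2+/+ mice spread widely. Mrps15 had 49.1, 36.9 and 54.1 CPM in Fmn2+/+ and 31.02 to 37.7 CPM in Fmn2-/- mice, where Fmn2+/+ replicate 2 fell within the knockout range (log2 fold change -0.47, adjusted p = 0.054, edgeR). Mrpl38 had 46.1, 37.7 and 47.1 CPM against 31.6 to 36.5 CPM (log2 fold change -0.36, adjusted p = 0.0548). Mrpl46 was the most even of these, at 30.0, 28.4 and 29.4 CPM in Fmn2+/+ mice and 22.01 to 24.5 CPM in Fmn2-/- mice (log2 fold change -0.31, adjusted p = 0.0568). It is a neighbour of Mrps11 on chromosome 7, with which it shares 173 exon bases on opposite strands.

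The number of members called at 8 months depended on 1 library, as did that of all genes. Without Fmn2+/+ replicate 2, 25 members were called, 24 of them lower, where 10.3% of all genes were called lower in that fit, and without any other single mouse 0 or 1 were called. The median log2 fold change stayed between -0.19 and -0.14 in these 8 fits. Astrocyte markers moved with the groups too: 5 of 6 were higher in Fmn2-/- mice of 8 months, Aqp4 past the threshold, and their summed level was 3420 to 3766 CPM in Fmn2+/+ and 4130 to 4565 CPM in Fmn2-/- mice with none at 0 throughout a group. All 6 oligodendrocyte markers were below 0 with none called. Of 6 granule cell markers 4 were above 0 and 2 below, and C1ql2 was called lower. The part of these markers in the result was not tested.

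The same directions were seen in both subunits. At 3 months 19 of 26 small-subunit and 42 of 50 large-subunit members were above 0 (medians 0.082 and 0.063), and at 8 months 23 of 26 and 41 of 50 were below 0 (medians -0.15 and -0.17). Members with a counterpart in the bacterial ribosome had a median of 0.088 at 3 months and -0.15 at 8 months (45 genes). Those without such a counterpart had 0.047 and -0.18 (29 genes). These differences between classes were not tested.

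In all, 51 of 77 members (66.2%) were above 0 at 3 months and below 0 at 8 months, against 30.9% of the 14662 genes tested at both ages. Only 10 were above 0 at both ages, 14 were below 0 at both and 2 (Mrpl50 and Mrps5) were below 0 at 3 months and above 0 at 8 months. In the role set, the stalk proteins Mrpl11 and Mrpl12 and the decoding protein Mrps12 belonged to the 51, as did Mrps18a and Mrps18c, members of a family of related proteins of which Mrps18a sits in the large subunit. Mrpl58, a peptidyl-tRNA hydrolase that is part of the large subunit and rescues stalled ribosomes, had log2 fold changes of -0.016 and -0.24, Mrps18b of -0.041 and -0.14, and Mrpl44, related to RNase III, of 0.12 and 0.023.

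**Figure D3:**
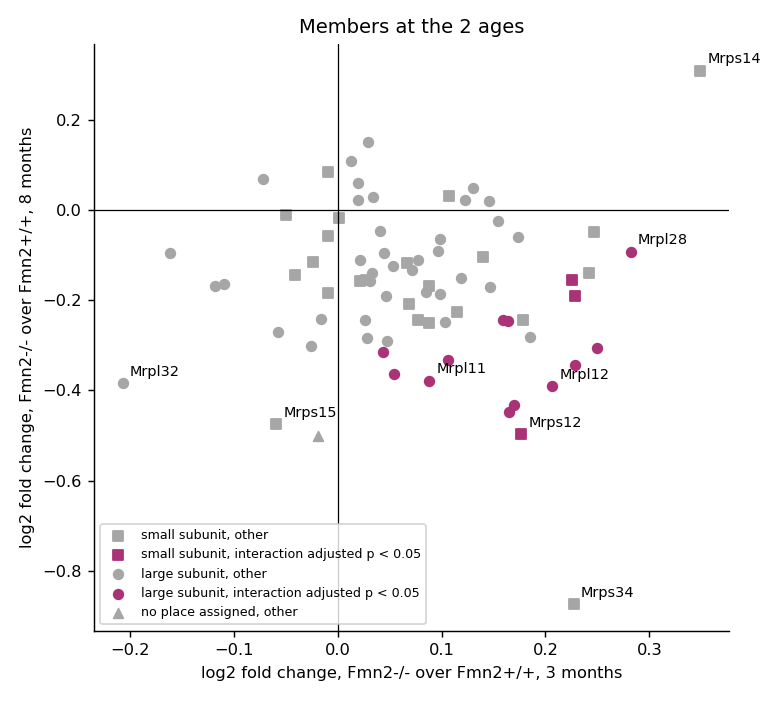
Log2 fold change of Fmn2-/- over Fmn2+/+ mice at 3 months (horizontal) and 8 months (vertical) for the 77 members, by subunit (symbol) and by the test of the difference between the ages (colour). Most points, 51, lie at the lower right, while Mrps14 is the outermost at the upper right and Mrpl32 the leftmost.

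A fit of all 18 mice tested whether the genotype difference changed between the ages, as the log2 fold change of Fmn2-/- over Fmn2+/+ at 8 months minus that at 3 months. It was below 0 for 70 of 77 members (90.9%), against 52.9% of all genes, with a median of -0.25 against -0.023 over 17046 genes. The test called 15 members, all below 0, where 2.99% of all genes were called in that direction. DESeq2 called 22, the same 15 among them, where it called 7.27% of all genes lower. Of the 15, 3 were of the small subunit (Mrps7, Mrps12, Mrps26) and 12 of the large subunit (Mrpl2, Mrpl11, Mrpl12, Mrpl14, Mrpl28, Mrpl34, Mrpl38, Mrpl46, Mrpl52, Mrpl54, Mrpl55 and Mrps18a).

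The largest difference among those called was that of Mrps12, at -0.68 (SE 0.16, adjusted p = 0.027, edgeR). Its 3-month levels overlapped, at 15.5 to 18.7 CPM in Fmn2+/+ and 16.6 to 24.1 CPM in Fmn2-/- mice. Mrpl12 followed a similar course, with a difference of -0.61 (SE 0.12, adjusted p = 0.0155, edgeR). At 8 months it was at 44.3, 35.8 and 43.3 CPM in Fmn2+/+ mice and at 36.3, 27.4, 32.6, 26.8 and 35.4 CPM in Fmn2-/- mice, and the groups overlapped narrowly. Mrps18a was at 42.1 to 44.2 CPM in Fmn2+/+ and 45.4 to 48.4 CPM in Fmn2-/- mice of 3 months, and at 53.8, 41.9 and 52.2 CPM against 37.4 to 41.7 CPM at 8 months. Its groups did not overlap at either age, with opposite order, and its difference was -0.45 (SE 0.092, adjusted p = 0.0155, edgeR). Mrpl11 had the smallest adjusted p, 0.0067 (difference -0.48, SE 0.077, edgeR), and was called in each of the 18 fits that left out 1 mouse. The large-subunit genes Mrpl34, Mrpl54, Mrpl52 and Mrpl14 had differences of -0.62, -0.61, -0.58 and -0.57. Mrpl34 was called in 3 of those 18 fits, whereas Mrpl54 and Mrpl14 were called in 16.

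**Figure D4:**
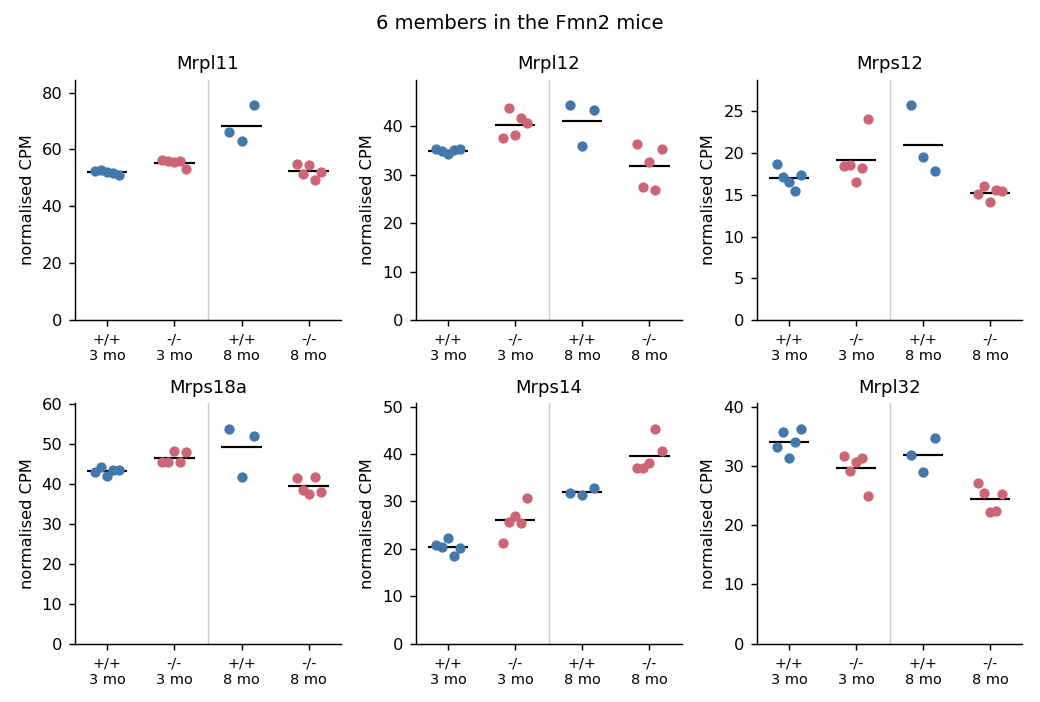
Normalised CPM of 6 members in each Fmn2 mouse (points; scaled within each age) with group means (bars). Mrpl11, Mrpl12, Mrps12 and Mrps18a are higher on average in Fmn2-/- mice at 3 months and lower at 8 months, whereas Mrps14 is higher and Mrpl32 lower at both ages.

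The number called in this fit depended on the 8-month Fmn2+/+ mice. Leaving out replicate 1 gave 1 call (0.0465% of all genes were called lower in that fit), replicate 2 31 (7.99%) and replicate 3 2 (0.53%), all lower, while the median stayed between -0.26 and -0.21 in all 18 such fits. With lane as a term 0 members were called, with a median of -0.21.

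GC content moved with these results. The GC trend of a mouse, the slope of its log2 level (relative to the mean of the 18 mice) on the GC content of 17003 genes, was -0.053 to 0.0086 per 10 percentage points in 3-month Fmn2+/+ mice and 0.022 to 0.13 in Fmn2-/- mice. At 8 months it was 0.15, -0.067 and 0.14 in Fmn2+/+ replicates 1 to 3 and -0.10 to -0.035 in Fmn2-/- mice. Replicate 2, without which more members and more of all genes were called, was thus the Fmn2+/+ mouse whose trend lay within the knockout range. Across the 77 members the rank correlation of the log2 fold change with GC content was 0.38 at 3 months, -0.41 at 8 months and -0.54 for the difference between the ages, and across all genes 0.33, -0.44 and -0.45. With exon length it was -0.39, 0.33 and 0.46 across members.

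With an offset for length and GC content in the fit, 69 of 77 members were below 0 for the difference between the ages, 65 of them also below 0 without it, with a median of -0.20. In this fit 3 members were called, where 0.129% of all genes were called lower. Of these only Mrpl11 was among the 15 (adjusted p = 0.0147, edgeR with the offset), and the other 2, Mrps9 and Mrpl15, are rich in A and T. After the offset the rank correlation with GC content across members was 0.30. With the offset 59 of 77 members were above 0 at 3 months (56 also without it) with a median of 0.074. At 8 months 65 were below 0 (59 also without it) with a median of -0.13. Mrpl11 had an adjusted p = 0.0473 there (edgeR with the offset). The share of all genes called in that 8-month fit is not given here, and without the offset 0.88% were called lower.

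**Figure D5:**
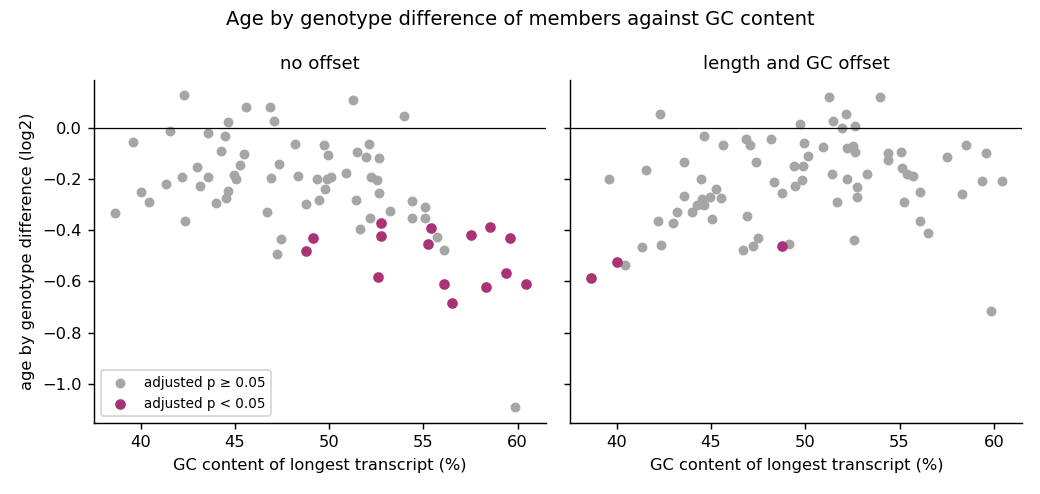
Difference of the genotype effect between the ages (log2) of 77 members against the GC content of their longest transcript, without (left) and with (right) an offset for length and GC content. The rank correlation is -0.54 on the left and 0.30 on the right, and most members lie below 0 in both panels (70 and 69 of 77).

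Mrps14 was 1 of the 10 members above 0 at both ages, and Mrpl32 1 of the 14 below 0 at both. At 3 months they had the highest and the lowest log2 fold change of the members. At 8 months Mrps14 was again the highest, but Mrpl32 was not the lowest. Both were chosen after their values were seen. Mrps14, a small-subunit protein, was at 20.8, 20.4, 22.2, 18.5 and 20.2 CPM in 3-month Fmn2+/+ mice and at 21.2, 25.7, 26.8, 25.4 and 30.8 CPM in Fmn2-/- mice, with 1 knockout inside the control range. At 8 months it was at 31.8, 31.5 and 32.8 CPM against 37.0, 37.1, 38.1, 45.2 and 40.7 CPM, without overlap. The log2 fold changes were 0.35 (SE 0.09, adjusted p = 0.227) and 0.31 (SE 0.084, adjusted p = 0.0772, edgeR), the highest of all members at both ages, and the difference between the ages was -0.054. Mrps14 lies on chromosome 1 (160195215 to 160202170, mm10), the chromosome of Fmn2 (174501825 to 174822729), 14.3 Mb away, and the other 4 members on that chromosome lie at least 94.7 Mb from Fmn2. In the cross it was at 43.9 to 70.6 CPM in the mice labelled FMN2-/-_APP, which have the high Fmn2 level, and at 37.3 to 56.3 CPM in the others (54.4 ± 8.67 and 48.2 ± 6.32, SD, log2 fold change 0.17, adjusted p = 0.389, edgeR).

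Mrpl32, a large-subunit protein that must be cleaved by a mitochondrial AAA protease before it is built into the ribosome, was at 31.4 to 36.2 CPM in 3-month Fmn2+/+ and 24.99 to 31.7 CPM in Fmn2-/- mice. At 8 months it was at 31.9, 28.9 and 34.6 CPM against 27.1, 25.4, 22.2, 22.5 and 25.2 CPM. The log2 fold changes were -0.21 (SE 0.072, adjusted p = 0.354) and -0.38 (SE 0.092, adjusted p = 0.0577, edgeR), the lowest of all members at 3 months. Its RefSeq window held the NRF1 letters at 4 positions, 2 of them overlapping. The largest fold change at 8 months in size was that of Mrps34 (-0.87, adjusted p = 0.0867, edgeR), at only 1.38 to 4.01 CPM and with exons that overlap Mapk8ip3.

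Other genes of the mitochondrial ribosome and of mitochondrial translation were read from fixed lists. Of 5 ribosome proteins with other symbols, 4 were above 0 at 3 months and 3 below 0 at 8 months, and in the difference between the ages 4 were below 0 and Aurkaip1 (-0.42, adjusted p = 0.0152) and Chchd1 (-0.36, adjusted p = 0.0329), both small-subunit proteins, were called (edgeR). Of 15 translation factors 7 were above 0 at 3 months and 8 at 8 months, and none was called in either comparison or in the difference. Among 20 mitochondrial tRNA synthetases none was called in these comparisons, with 15 and 11 above 0. Of 23 assembly and rRNA maturation factors 16 were above 0 at 3 months and 14 below 0 at 8 months, with Mtg2, a GTPase of large-subunit assembly (-0.68, adjusted p = 0.0322), and Rbfa, a small-subunit maturation factor (-0.56, adjusted p = 0.0254), called in the difference.

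Polrmt, the mitochondrial RNA polymerase, was called lower at 8 months, from 25.7 ± 2.38 (SD, n = 3) to 18.6 ± 0.848 CPM (SD, n = 5; log2 fold change -0.48, adjusted p = 0.0407, edgeR), and in the difference (-0.62, adjusted p = 0.0137). Among the 7 genes of mitochondrial transcription 7 were above 0 at 3 months and 5 below 0 at 8 months. Of 9 regulators of mitochondrial genes 4 were above 0 at 3 months, 5 at 8 months and 6 in the difference. Only Esrra, a nuclear receptor, was called among them, in the difference (-0.60, adjusted p = 0.0314, edgeR). Of the messages that the mitochondrial ribosome translates, the 7 of 13 that were tested all had negative log2 fold changes at both ages, with medians of -0.29 and -0.38 and none called. The 2 ribosomal RNAs, mt-Rnr1 and mt-Rnr2, had 0.065 and 0.062 at 3 months and -0.36 and -0.28 at 8 months (adjusted p = 0.0753 and 0.0867 at the latter age, edgeR). These RNAs come from libraries selected for polyadenylated RNA, and 4 to 6 mitochondrial messages were listed at 0 in all mice of a group, so their levels describe the libraries.

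In mice that all carried the amyloid transgene, the members were not called different between the labelled Fmn2 genotypes. The fold change of labelled FMN2-/-_APP over FMN2 +/+ APP was above 0 for 51 of 77 members, with a median of 0.023 against 0.0057 for all genes. In edgeR's test 0 members were called (1.57% of all genes were, in either direction), 4 had an unadjusted p under 0.05 (16.6% of all genes) and DESeq2 called 1, Mrpl42 (3.85% of all genes). The mean log2 CPM of the members was 4.82 ± 0.153 (SD, n = 7) and 4.78 ± 0.131 (SD, n = 9), with ranges of 4.64 to 5.09 and 4.51 to 4.92, so the mice of each group spread more than in the other experiments. Replicate 2 labelled FMN2-/-_APP was the highest, and without it 30 of 77 members were above 0, the median was -0.021 and 2 members were called lower. Without the 2 mice high in choroid plexus markers, an alternative chosen after seeing the data, 0 members were called, with a median of 0.0016. With all mice, all 6 oligodendrocyte and all 6 granule cell markers were above 0, C1ql2 past the threshold. Of 6 markers each, 4 of cortical neurons and 3 of astrocytes were above 0. Microglia and endothelium each had 5 of 6 below 0, and all 6 choroid plexus markers were below 0. The part of these markers was not tested.

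Mrpl42, a mitochondria-specific protein of the large subunit, came closest, at 30.8, 37.8 and 43.0 CPM (lowest, median and highest of 7) in mice labelled FMN2-/-_APP and 28.01, 29.5 and 35.5 CPM in the 9 others. The groups overlapped, with a log2 fold change of 0.30 (SE 0.075, adjusted p = 0.0535, edgeR). In 3-month Fmn2-/- mice Mrpl42 was at 28.8 to 39.4 CPM against 31.6 to 37.7 CPM in Fmn2+/+ mice, with overlap (log2 fold change -0.057). In 8-month Fmn2-/- mice Mrpl42 was at 26.6 to 35.3 CPM against 35.8 to 38.9 CPM in Fmn2+/+ mice. It was not called at either age. The next 4 were Mrpl48 (log2 fold change -0.21), Mrps10 (-0.24), Mrps31 (0.15) and Mrps27 (0.16), with adjusted p from 0.206 to 0.312 (edgeR). Mrpl11, Mrpl12 and Mrps12 had log2 fold changes of -0.12, 0.097 and -0.091 here, with standard errors of 0.095, 0.13 and 0.14.

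Between mice labelled APP and wild-type mice titled PFC the members were close to even, with 37 of 77 above 0 and a median of -0.003 against -0.00041 for all genes. In edgeR's test 0 members were called where 3.81% of all genes were in either direction, 4 had an unadjusted p under 0.05 (14.3% of all genes), and DESeq2 called 0 (4.03% of all genes). The mean log2 CPM of the members was 4.32 ± 0.0915 in APP and 4.32 ± 0.0357 in wild-type mice (SD, n = 6 each). All APP libraries ran on lane 7 and all wild-type libraries on lane 5, so lane and genotype cannot be told apart. Tissue makeup moved with the genotype, since all 6 microglia markers were called higher in APP mice (summed 395 to 511 against 239 to 267 CPM, none at 0), and its part in the members' values was not tested.

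Among the members here, Mrps18c was at 9.86, 9.47, 9.41, 9.72, 9.80 and 10.2 CPM in APP and at 9.09, 8.38, 9.07, 7.88, 8.31 and 9.14 CPM in wild-type mice, without overlap (log2 fold change 0.17, SE 0.066, adjusted p = 0.206, edgeR). Its relative Mrps18b was at 8.20 to 10.1 CPM against 7.42 to 9.06 CPM, with overlap (log2 fold change 0.18, adjusted p = 0.274). Mrpl57, Mrpl36 and Mrpl24 had log2 fold changes of 0.18, 0.15 and -0.11. The stalk genes Mrpl11 and Mrpl12 had 0.086 and -0.049, with standard errors of 0.059 and 0.084.

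The libraries titled PFC held less mitochondrial ribosomal protein RNA than the dentate gyrus libraries, as a description across experiments. In wild-type mice 63 of 77 members were lower there than in 3-month dentate gyrus, with a median log2 difference of -0.38 against 0.038 over 18933 genes, and 49 were lower and 6 higher without overlap of the mice, where 25.7% of all genes were lower and 27.7% higher in that way. Mrpl32 differed most, with 5.15 ± 0.0795 log2 CPM (SD, n = 5) in dentate gyrus and 3.595 ± 0.113 (SD, n = 6) in PFC-titled libraries, followed by Mrps22 with 4.85 ± 0.104 and 3.75 ± 0.128. Mrps14 went the other way, from 4.41 ± 0.0977 to 5.10 ± 0.0902. Age, lane and experiment differ between these groups as well as tissue, and cannot be told apart from it.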

How the data were processed

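The deposited files hold raw read counts per gene, which the authors made from TruSeq libraries by aligning reads to mm10 with STAR and counting with HTSeq in intersection-non-empty mode, from a kit that does not mark strand. No normalization had been applied. Runs of 1 mouse were summed. Groups came from the genotype, age and tissue labels, and cross mice were grouped by label although Fmn2 goes against it.

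Counts were tested with edgeR (4.0.16, R 4.3.3): filterByExpr, TMM factors and the quasi-likelihood test over all genes, with Benjamini-Hochberg adjustment and calls at an adjusted p under 0.05. CPM values are scaled by TMM within a comparison, Fmn2 and marker sums by total reads. Log2 CPM used a prior count of 2. RPKM used summed exon length (GENCODE M21). Chi-square values used genes with at least 20 reads in a pair. The test was tried on simulated counts, where it recovered 99% of 100 genes changed by 1 log2 unit among 16503 genes at 3 months and 97% among 14520 at 8 months, and 43% and 35% of those changed by 0.5. False calls numbered 5 at 3 months and 10 at 8 months. The simulation gave every gene the same dispersion, changed no low genes and held no lane or GC trend. These rates therefore need not hold for these mice. DESeq2 (1.42.0), other factors and filters, a length and GC offset, lane, replicate block (5 spline degrees of freedom for the offset), single mice left out and summed or thinned libraries were alternatives.

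Genes named were a set of 8 with known roles, those called (at most 8 by size) or the 5 of smallest p per comparison, and the 3 highest and lowest by RPKM. Members and lists were chosen with earlier results of these data known. The labels do not give the litters of the mice, so the tests treat the mice as independent. The p-values set a group difference against the variation between these mice. Lane and GC trend, which moved with the groups, enter them too. Shallow 8-month libraries make low genes there less precise.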

Additional observations from a re-analysis of the deposited data

Results flagged for a closer look

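The change of the genotype difference between 3 and 8 months was past the threshold of the interaction test (edgeR, adjusted p under 0.05, 18 mice) in the 8 members named for it. The log2 values were -0.68 for Mrps12, -0.62 for Mrpl34, -0.61 for Mrpl54, -0.61 for Mrpl12, -0.58 for Mrpl52, -0.57 for Mrpl14, -0.48 for Mrpl11 and -0.45 for Mrps18a. With the length and GC offset only Mrpl11 of these stayed past the threshold. With lane as a term or with a replicate block none of the 8 did, Mrpl11 included. In the 18 fits that left out 1 mouse, calls ran from 3 (Mrpl34) to 18 (Mrpl11).

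Of 42 groups of values tested for a sample far from the rest, 1 stood out, where chance gives about 1 in 20. Mrpl24 was at 23.98 CPM in wild-type replicate 5 titled PFC, below the other 5 mice at 25.2 to 25.9 CPM.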

How the results depend on the processing

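The median member log2 fold change moved by less than the spread between mice under every alternative run in all 5 comparisons, and no named member changed sign. With single mice left out, the median lay on both sides of 0 in the cross (-0.021 to 0.049) and for the PFC titles (-0.024 to 0.025). Of the named members' fold changes under the alternatives, 487 were rated the same, 88 weaker and 21 stronger. The members named for the difference between the ages were all smaller in size with the length and GC offset, from -0.46 (Mrpl11) to -0.21 (Mrpl54). Numbers of members called moved more, as did the share of all genes called (given in brackets), and the cause was not tested. At 3 months DESeq2 called 3 (1.4%, against 0 in edgeR), and leaving out single mice gave 0 to 1, the 1 without Fmn2-/- replicate 1. At 8 months (1 in edgeR) DESeq2 gave 9 (5.54%), no filter on low counts 10 (3.93%), lane as a term 0 (0.0205%), knockout replicates 2 and 3 summed 0 (0.0337%), 8-month libraries drawn down to the shallowest 0 (0.149%), and single mice left out 0 to 25 (22.7% at 25, without Fmn2+/+ replicate 2). For the difference between the ages (15 in edgeR) no filter gave 9 (1.24%), the length and GC offset 3 (0.147%), lane 0 (0.00587%), replicates summed 5 (1.33%), drawn-down libraries 4 (1.44%), and single mice left out 1 to 31 (16.2% at 31, without the same mouse). In the cross (0 in edgeR) DESeq2 gave 1 (3.85%), the length and GC offset 1 (2.71%), and single mice left out 0 to 2 (2.19% at 2). Among mice labelled APP and wild type titled PFC every alternative gave 0.

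Replicate numbers recur between groups, but the deviations of same-numbered mice correlated at -0.09 to 0.21 at 3 months, -0.051 to -0.026 at 8 months, -0.29 to 0.27 in the cross and -0.17 to 0.19 for the PFC titles, so the numbers were not taken as pairs. With a replicate block, which keeps only numbers present in both groups, 0 members were called at 3 months, 0 at 8 months and 0 for the difference between the ages, also 0 with the length and GC offset. Medians under the block were 0.067 at 3 months, -0.16 at 8 months and -0.23 for the difference. The 8-month depth of 11675280 reads or fewer in 7 of 8 mice limits low members such as Mrps34.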
